A study of Mus musculus with 15 samples.

Results

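Ppara and 7 genes of fatty acid handling that it is known to control were followed in mouse ileum. The mice carried floxed Rfx6, with or without a tamoxifen-inducible Cre recombinase. The genes were Ppara, Cpt1a, Ehhadh, Acaa1b, Cyp4a10, Acot1, Pdk4 and Vnn1. They were chosen by symbol, with earlier results of these data known, as targets of PPAR-alpha with an entry in all 15 library columns. They are 8 of the 37620 gene identifiers counted. PPAR-alpha, the product of Ppara, is a nuclear receptor that binds fatty acids and their derivatives. As a heterodimer with RXR it turns on genes for the uptake, activation and oxidation of fatty acids and for ketone body synthesis. In the small intestine it is known for the response of enterocytes to dietary fat and to fasting.

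The study asked which genes depend on Rfx6, which encodes a transcription factor of hormone-producing intestinal cells, in the adult ileum. The animals labelled mutant were Rfx6f/f Vilin-CreERT2, in which the Villin promoter drives a tamoxifen-inducible Cre recombinase in the intestinal epithelium. Controls were Rfx6f/f or Rfx6f/+. Tamoxifen (10 mg per dose) was given by gavage to adult mice over 5 days, and the protocol names no untreated group, so that controls carried floxed Rfx6 and received the drug as well. Ileum was taken 8 days later (3 control libraries, all Rfx6f/f, and 4 labelled mutant) or 3 months later (4 control libraries and 4 labelled mutant). Of the 3-month controls, replicates 1 and 4 were Rfx6f/f and replicates 2 and 3 were Rfx6f/+. The labels give no exact age. They do not say whether the libraries came from separate litters or days, so p-values measure the spread between these libraries.

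The 8-day libraries held between 30.45 and 54.47 times 1000000 counts each, the 3-month libraries between 26.08 and 36.27 times 1000000. Levels are given as counts per 1000000 (CPM), on library sizes scaled separately within each cohort. At these depths 3 counts correspond to 0.0552 to 0.0975 CPM at 8 days and to 0.08 to 0.117 CPM at 3 months, which covers counting error only. Whole-gene counts of Rfx6 did not fall in the libraries labelled mutant. They stood at 1.35 to 1.61 CPM in controls and 1.43 to 2.05 CPM in labelled mutants at 8 days, and at 1.48 to 1.77 and 2.31 to 3.40 CPM at 3 months, where its rise against the label passed the edgeR test (0.72 on the log2 scale, adjusted p 0.0347). Coverage of the floxed exons was not analysed here, and the groups are therefore called by their labels. All 6 enterocyte markers were present, with a summed level of 7360 to 14500 CPM across the 15 libraries. In whole tissue, fewer cells of a type and less RNA per cell cannot be told apart.

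In control ileum the genes spanned more than 2 orders of magnitude in level per length. At 8 days Cpt1a (34.8 ± 1.07 CPM per kilobase of exon, SD, n = 3), Ehhadh (30.5 ± 4.09) and Vnn1 (29.9 ± 6.33) stood at the top and did not differ beyond their spread. Ppara followed at 9.61 ± 0.657, Pdk4 at 4.93 ± 1.95 and Acaa1b at 1.63 ± 0.314 CPM per kilobase. Acot1 (0.42 ± 0.0679) and Cyp4a10 (0.102 ± 0.0988) were lowest. In the 3-month controls Vnn1 stood first at 46 ± 4.26 CPM per kilobase (SD, n = 4), above Ehhadh (25.3 ± 3.68) and Cpt1a (22.4 ± 1.52), whose ranges met. Ppara was at 6.55 ± 0.761, Acaa1b at 1.42 ± 1.23, Pdk4 at 1.3 ± 0.673, Acot1 at 0.376 ± 0.0689 and Cyp4a10 at 0.0666 ± 0.0905. Acaa1b and Pdk4 were not separable there. As each time point is its own cohort, cohort and time cannot be told apart, and their levels are set side by side only.

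At 3 months, Cpt1a was the 1 gene of the 8 whose rise in the libraries labelled mutant passed the test, at 1.46-fold. The other 6 tested genes also had positive fold changes and did not pass, and Cyp4a10 was below the filter for testing. Thus 1 of 7 tested genes (14.3%) passed the threshold of 0.05 on the adjusted p (edgeR quasi-likelihood test, Benjamini-Hochberg adjustment), against 9.28% of all 17085 genes tested. All 7 log2 fold changes were positive, with a median of 0.55, where 51.2% of all tested genes were positive with a median of 0.008. As the genes were chosen with earlier results of these data known, this comparison is a description and not a test. In 2 genes, Cpt1a and Pdk4, every library labelled mutant was above every control, which held for 9.70% of all tested genes. At 8 days 0 of the 7 tested genes was called by edgeR, against 0.0915% of 17493 genes, while 2 (Acaa1b and Vnn1) had an unadjusted p under 0.05, as did 8.8% of all genes. DESeq2 called those 2 at 8 days, where it called 1.02% of all genes, and limma-voom called 0. Their groups did not overlap, as for 3.84% of all genes in that direction. The median log2 fold change of the 7 at 8 days was 0.16, with 6 of 7 positive, against -0.002 and 49.3% over all genes.

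**Figure D1:**
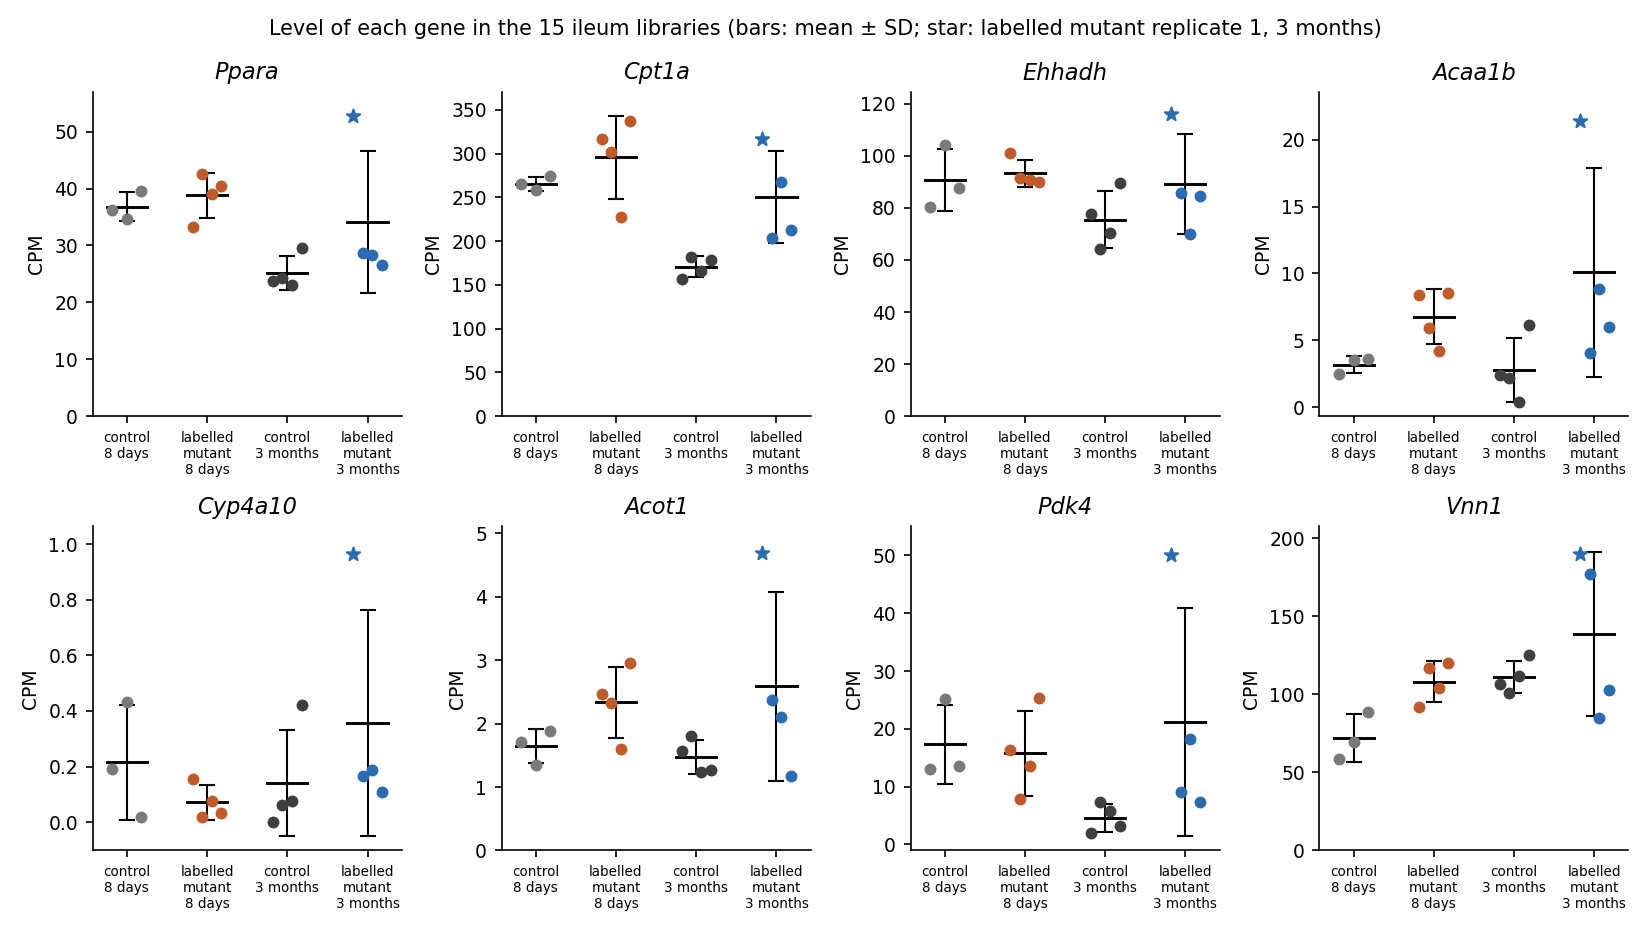
Level of each of the 8 genes in CPM (linear axes, 1 panel per gene) in the 15 ileum libraries, as points by group with bars for mean ± SD. The star marks labelled mutant replicate 1 of 3 months, which is the highest of the 8 libraries of its cohort in every panel.

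Ppara, the receptor itself (ENSMUSG00000022383, chromosome 15), did not pass the test at either time. Its control libraries at 8 days held 36.2, 34.7 and 39.6 CPM and the libraries labelled mutant 33.3, 42.6, 39.0 and 40.4 CPM. These groups overlapped, and edgeR gave 0.07 on the log2 scale (SE 0.09, adjusted p 0.917). At 3 months the controls held 23.7, 24.2, 23.1 and 29.5 CPM, and the labelled mutants 52.7, 28.7, 28.3 and 26.6 CPM. Replicate 1 alone lay above the controls, and the other 3 lay within their range. The log2 fold change was 0.44 (SE 0.21, adjusted p 0.208 by edgeR), and 0.15 (adjusted p 0.354) without replicate 1.

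Cpt1a (ENSMUSG00000024900, chromosome 19) encodes the carnitine palmitoyltransferase of the outer mitochondrial membrane, the gate for entry of long-chain fatty acids into mitochondria. At 8 days its controls held 265, 258 and 274 CPM and the labelled mutants 317, 302, 228 and 337 CPM, so that 3 of 4 lay above the controls and 1 below. That gave 0.16 on the log2 scale (SE 0.12, adjusted p 0.825 by edgeR). At 3 months the controls held 157, 182, 166 and 179 CPM, and the labelled mutants 317, 204, 268 and 213 CPM. The groups were separate, with means of 171 ± 11.6 and 250 ± 52.6 CPM (SD, n = 4 each). The log2 fold change was 0.55 (SE 0.14, adjusted p 0.0408 by edgeR). The call held in 10 of 17 alternative settings, while the log2 fold change stayed between 0.42 and 0.64. Without labelled mutant replicate 1 it was 0.42 (adjusted p 0.0603), without replicate 3 it was 0.51 (0.0852), and with the Rfx6f/f controls alone 0.57 (0.223). Leaving out control replicate 1, 2, 3 or 4 gave 0.51 (0.105), 0.58 (0.0864), 0.54 (0.105) and 0.57 (0.0589).

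Ehhadh and Acaa1b act in the peroxisome, where very long chains are shortened. Ehhadh (ENSMUSG00000022853, chromosome 16) is the bifunctional hydratase and dehydrogenase of that pathway. Its 8-day controls held 80.5, 104 and 87.8 CPM and the labelled mutants 101, 91.4, 90.8 and 89.8 CPM. The labelled mutants lay inside the range of the controls. At 3 months the controls held 77.6, 64.1, 70.4 and 89.6 CPM and the labelled mutants 116, 85.9, 70.0 and 84.7 CPM, with replicate 1 alone above the controls. The log2 fold changes were 0.04 (SE 0.10, adjusted p 0.969) at 8 days and 0.24 (SE 0.15, adjusted p 0.332) at 3 months by edgeR. The 3-month value was 0.09 without labelled mutant replicate 1 (adjusted p 0.683) and also with the Rfx6f/f controls alone (0.83).

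Acaa1b (ENSMUSG00000010651, chromosome 9) is a peroxisomal thiolase, the last enzyme of the cycle. At 8 days its controls held 2.48, 3.52 and 3.57 CPM, and the labelled mutants 8.37, 5.92, 4.24 and 8.52 CPM, all above the controls. The means were 3.19 ± 0.616 (SD, n = 3) and 6.76 ± 2.06 CPM (SD, n = 4). Its log2 fold change of 1.08 (SE 0.27) had an adjusted p of 0.4 by edgeR and of 0.0094 by DESeq2. At 3 months the controls held 2.44, 2.18, 0.388 and 6.12 CPM, and the labelled mutants 21.4, 4.09, 8.82 and 6.02 CPM. The groups overlapped and the controls alone ranged more than 10-fold. Its log2 fold change was 1.85 (SE 0.71, adjusted p 0.125 by edgeR), 1.18 (0.295) without labelled mutant replicate 1 and 2.57 (0.0616) without control replicate 4. With the Rfx6f/f controls alone it was 1.23 (adjusted p 0.415). Counts of Acaa1b are uncertain, since 46.22% of the 50-base stretches of its longest transcript also occur in another gene, 35.55% in Acaa1a and 10.67% in Dlec1, which lies opposite. Acaa1a, the near-identical thiolase, was at 97.7 CPM in labelled mutants and 94.1 CPM in controls at 3 months (log2 fold change 0.06, SE 0.16, adjusted p 0.843 by edgeR).

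Cyp4a10 (ENSMUSG00000066072, chromosome 4) encodes a cytochrome P450 that hydroxylates the far end of fatty acids. It was at a very low level in this tissue. Its 8-day libraries held 6, 16 and 1 counts in controls and 7, 1, 3 and 1 in labelled mutants. The 3-month controls held 0, 2, 2 and 12 counts, and the labelled mutants 30, 5, 7 and 3. Labelled mutant replicate 1 was again the highest, at 0.963 CPM against 0.107 to 0.187 CPM in the other 3 of its group. The gene was below the filter for testing within each time point, and no fold change is given for it there. It shares 25% of its 50-base stretches with Cyp4a32 and 15.34% with Cyp4a31. Those relatives were as low, with 0 to 4 counts for Cyp4a32, 0 to 7 for Cyp4a31 and 0 to 2 for Cyp4a14 per library.

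Acot1 (ENSMUSG00000072949, chromosome 12) encodes a cytosolic thioesterase that releases free fatty acids from acyl-CoA. Its 8-day controls held 1.71, 1.35 and 1.88 CPM and the labelled mutants 2.47, 2.32, 1.60 and 2.96 CPM, of which 3 were above all controls. Its log2 fold change was 0.50 (SE 0.23, adjusted p 0.604 by edgeR). The 3-month controls held 1.57, 1.81, 1.24 and 1.27 CPM and the labelled mutants 4.69, 2.38, 2.11 and 1.17 CPM. Replicates 1 to 3 were above all controls and replicate 4 below them, with 0.81 on the log2 scale (SE 0.37, adjusted p 0.186 by edgeR). Without replicate 1 the value was 0.36 (adjusted p 0.43). Acot1 shares 17.61% of its 50-base stretches with the mitochondrial paralog Acot2, so the split of reads between them is uncertain. Acot2 itself stood at 8.68 CPM in labelled mutants and 5.19 CPM in controls at 3 months (log2 fold change 0.74, SE 0.21, adjusted p 0.0572 by edgeR). Acot4 was at a log2 fold change of 0.20 (adjusted p 0.431 by edgeR), and Acot3 (0 to 8 counts) and Acot5 (0 to 11 counts) were too low to test.

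Pdk4 (ENSMUSG00000019577, chromosome 6) encodes the kinase that inhibits pyruvate dehydrogenase and so spares glucose when fat is burned. Its 8-day controls held 13.1, 25.2 and 13.6 CPM and the labelled mutants 16.3, 7.83, 13.5 and 25.4 CPM, which overlapped (log2 fold change -0.14, SE 0.37, adjusted p 0.971 by edgeR). At 3 months the controls held 2.02, 7.25, 5.71 and 3.24 CPM and the labelled mutants 50, 9.04, 18.3 and 7.37 CPM. The groups were separate by a narrow margin, between control replicate 2 and labelled mutant replicate 4. The means were 4.55 ± 2.36 and 21.2 ± 19.8 CPM (SD, n = 4 each), so the SD of the labelled mutants was close to their mean. The log2 fold change of 2.22 (SE 0.65) had an adjusted p of 0.0622 by edgeR, and of 0.0177 by DESeq2. Without labelled mutant replicate 1 it was 1.35 (adjusted p 0.119), and without replicate 4 it was 2.50 (0.0478). With the Rfx6f/f controls alone it was 3.01 (adjusted p 0.198). Of its relatives, Pdk3 fell at 3 months by 0.33 on the log2 scale (SE 0.05, adjusted p 0.00915 by edgeR), from 49.8 to 51.0 CPM in controls to 38.7 to 41.9 CPM in labelled mutants. Pdk1 (-0.23, adjusted p 0.114) and Pdk2 (0.16, adjusted p 0.564) did not pass.

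Vnn1 (ENSMUSG00000037440, chromosome 10) encodes pantetheinase, a membrane-anchored enzyme that recycles pantothenate, the vitamin precursor of coenzyme A. At 8 days its controls held 58.5, 69.7 and 88.8 CPM, and the labelled mutants 91.7, 117, 104 and 120 CPM, all above the controls. Its log2 fold change was 0.58 (SE 0.15), with an adjusted p of 0.443 by edgeR and 0.0196 by DESeq2. The 3-month controls held 107, 101, 112 and 125 CPM and the labelled mutants 190, 177, 85.2 and 103 CPM. Replicates 1 and 2 were above the controls and replicate 3 was below them, with 0.32 on the log2 scale (SE 0.24, adjusted p 0.403 by edgeR). That value was 0.13 (adjusted p 0.751) without replicate 1, 0.18 (0.667) without replicate 2 and 0.49 (0.156) without replicate 3. The neighbouring family member Vnn3 had a log2 fold change of -0.94 at 3 months (adjusted p 0.123 by edgeR).

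**Figure D2:**
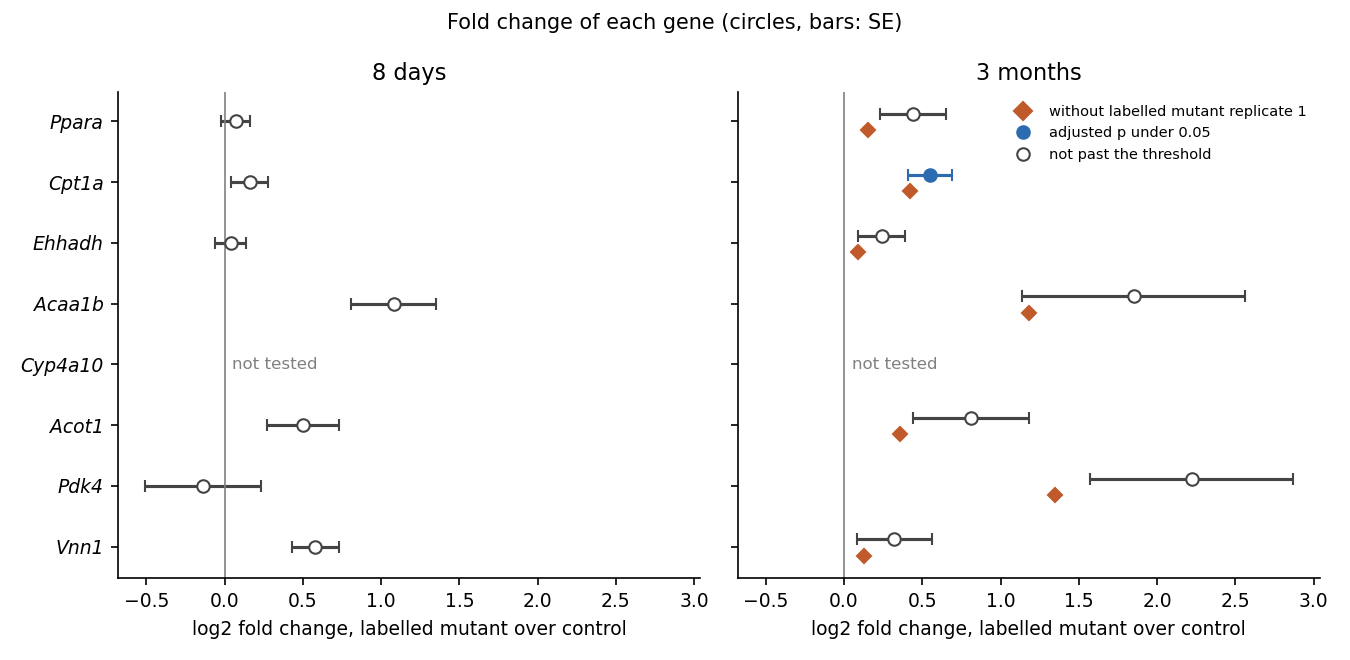
Log2 fold change of each gene, labelled mutant over control, at 8 days and 3 months (circles with SE), with a filled circle where the adjusted p is under 0.05 and a diamond for the value without labelled mutant replicate 1 of 3 months. Only Cpt1a at 3 months is filled, and all 7 diamonds lie to the left of their circles.

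A single library was high throughout at 3 months. Labelled mutant replicate 1 was the highest of the 8 libraries in 8 of the 8 genes, in 47 of 71 other pathway genes (66.2%) and in 19.5% of all genes tested. Its values exceeded every control in 8 genes, against 4, 4 and 2 genes for labelled mutant replicates 2, 3 and 4. Over all 17085 tested genes, replicates 1 to 4 exceeded every control in 5524, 4764, 5107 and 4707 genes. Without it, the median log2 fold change of the 7 tested genes went from 0.55 to 0.36, all 7 stayed positive, Cpt1a no longer passed, and 4.95% of all genes were called. The same library stood apart in some genes of the circadian clock. Nr1d1 was at 21.1 CPM there against 2.57 to 6.25 in the other 7 libraries, Nr1d2 at 64.9 against 23.5 to 30.7, and Tef at 33.0 against 12.5 to 25.1 CPM. These 3 genes were named after their values were seen, and it was highest in 7 of the 14 clock genes. The summed clock level was 406 to 433 CPM in controls and 411 to 545 CPM in labelled mutants, and 0 of the 14 was called at 3 months by edgeR (1 at an unadjusted p under 0.05). The labels give no hour of collection or feeding state, and the part of either in the results was not tested. At 8 days labelled mutant replicate 4 was highest in 5 of the 8 genes (62.5%), against 15.5% of all 17493 genes, and was above every control in 6, as it was in 4751 of all genes. Control replicate 2 was highest in 2 of the 8 (25%), against 18.9% of all genes.

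**Figure D3:**
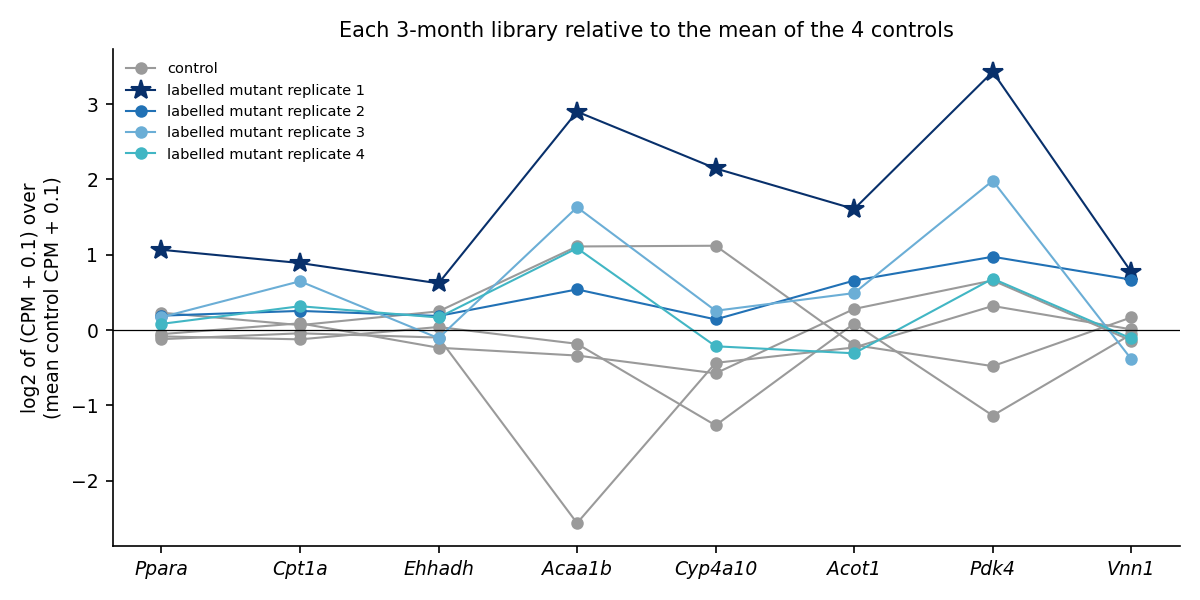
Each 3-month library as a line over the 8 genes, on a log2 scale relative to the mean of the 4 controls after adding 0.1 CPM. Labelled mutant replicate 1 (stars) is the top line at every gene, and the controls (grey) and the other labelled mutants mix at Ppara, Ehhadh, Acaa1b, Cyp4a10, Acot1 and Vnn1.

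Many other genes of the pathway rose in the libraries labelled mutant at 3 months. Of 83 other listed genes of PPAR-alpha signalling and fatty acid oxidation, 71 were tested at 3 months and 25 were called by edgeR (35.2%). Of these, 24 rose, where 4.96% of all tested genes rose, and 1 (Pdk3) fell, where 4.32% fell. Positive fold changes were found in 59 of 71, with a median log2 value of 0.26. The pathway list was also chosen with earlier results of these data known, so these shares describe it and are not a test. At 8 days 0 of 74 tested genes was called by edgeR or limma-voom and 1 by DESeq2, which called 1.02% of all genes. By edgeR 11 had an unadjusted p under 0.05 (8.8% of all genes did), 46 were positive and the median was 0.06. The count at 3 months stayed between 22 and 30 under other tools, scalings and filters. It was 19 of 73 tested without labelled mutant replicate 1 and 14 of 71 without replicate 3, where 4.95% and 4.45% of all genes were called. Without control replicate 1, 2 or 3 it was 7 of 72, 72 and 73 tested. In those 3 fits 2.31%, 2.39% and 2.25% of all genes were called. With the 2 Rfx6f/f controls alone it was 1 (Creb3l3), where 36 genes (0.205%) were called in all.

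Among receptors and their partners 2 of 6 tested genes rose at 3 months. Ppard, the broadly expressed relative of Ppara, went from 38.6 to 40.9 CPM in controls to 52.6 to 69.1 CPM in labelled mutants (log2 fold change 0.62, SE 0.08, adjusted p 0.00613 by edgeR). Ppargc1a, the coactivator of mitochondrial genes, held 17.3, 15.3, 18.2 and 21.7 CPM in controls and 58.6, 32.2, 28.3 and 35.3 CPM in labelled mutants (1.09, SE 0.22, adjusted p 0.0236). Both groups were separate in both genes. Pparg, the adipogenic relative, had a log2 fold change of 0.00.

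Fatty acid activation and entry into mitochondria gave 4 of 8 tested genes higher. Acsl3, an acyl-CoA synthetase tied to lipid droplets, went from 31.1 to 38.1 CPM in controls to 59.3 to 97.1 CPM in labelled mutants (log2 fold change 1.19, SE 0.14, adjusted p 0.00396 by edgeR). Acsl1 (0.56, adjusted p 0.0238), another synthetase, and Slc25a20 (0.63, adjusted p 0.0301), the carnitine carrier of the inner membrane, rose as well. The remaining gene was Cpt2 (0.25, adjusted p 0.0434), the inner membrane partner of Cpt1a. Cpt1b, the muscle form of the entry enzyme, did not pass (-0.03, adjusted p 0.939). In the mitochondrial cycle itself 7 of 15 tested genes rose. Hadha and Hadhb, the subunits of the trifunctional protein, rose by log2 values of 0.58 (adjusted p 0.0170) and 0.56 (0.0276) by edgeR. Hadha was at 229 to 252 CPM in controls and 305 to 435 CPM in labelled mutants. Acadvl, the very long chain dehydrogenase (0.53, SE 0.08, adjusted p 0.00954), and Acaa2, the thiolase (0.70, SE 0.13, adjusted p 0.0177), also rose. Etfa (0.26, adjusted p 0.0252) and Etfdh (0.37, adjusted p 0.0291), which pass electrons to the respiratory chain, rose too. Of the exon bases of Acadvl, 42.85% overlap Dvl2 on the other strand, and whether counting used strand is not given in the sources used here.

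In the peroxisome 3 of 12 tested genes rose, led by Hsd17b4, the second multifunctional enzyme (0.84, SE 0.16, adjusted p 0.0219 by edgeR). It held 89.4 to 132 CPM in controls and 160 to 247 CPM in labelled mutants. Of the omega-oxidation genes 0 of 2 tested was called by edgeR, and 5 of the 7 listed were too low to test. Of 6 thioesterases 1 rose: Acot12, at 1.09 to 2.27 CPM in controls and 4.45 to 4.98 CPM in labelled mutants (1.37, SE 0.21, adjusted p 0.0103).

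Of 18 tested genes of fuel choice and other targets, 6 rose and 1 fell. Creb3l3, a liver and gut transcription factor of the fasting response, was at 63.6, 49.9, 62.6 and 63.9 CPM in controls and 211, 176, 168 and 245 CPM in labelled mutants. Its log2 fold change of 1.74 (SE 0.13, adjusted p 5.5e-04 by edgeR) passed in every alternative tried at 3 months, with adjusted p from 3.1e-32 to 0.0248. Me1, the cytosolic malic enzyme, which makes NADPH for lipid synthesis, went from 17.1 to 31.2 CPM in controls to 40.6 to 119 CPM in labelled mutants (1.56, SE 0.33, adjusted p 0.0270). Plin2, a lipid droplet coat protein, went from 53.0 to 71.9 CPM in controls to 82.1 to 119 CPM in labelled mutants (0.78, SE 0.13, adjusted p 0.0143). Mgll (0.83, adjusted p 0.0320), a monoglyceride lipase, and Retsat (0.76, adjusted p 0.0318), a retinol saturase, rose as well by edgeR. Angptl4, a secreted inhibitor of lipoprotein lipase, was at 176, 57.0, 51.4 and 24.8 CPM in labelled mutants and 27.6, 34.6, 47.3 and 17.4 CPM in controls, and did not pass (1.28, SE 0.55, adjusted p 0.161). Fabp1, the liver-type fatty acid binding protein, had a log2 fold change of 1.22 (adjusted p 0.081).

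**Figure D4:**
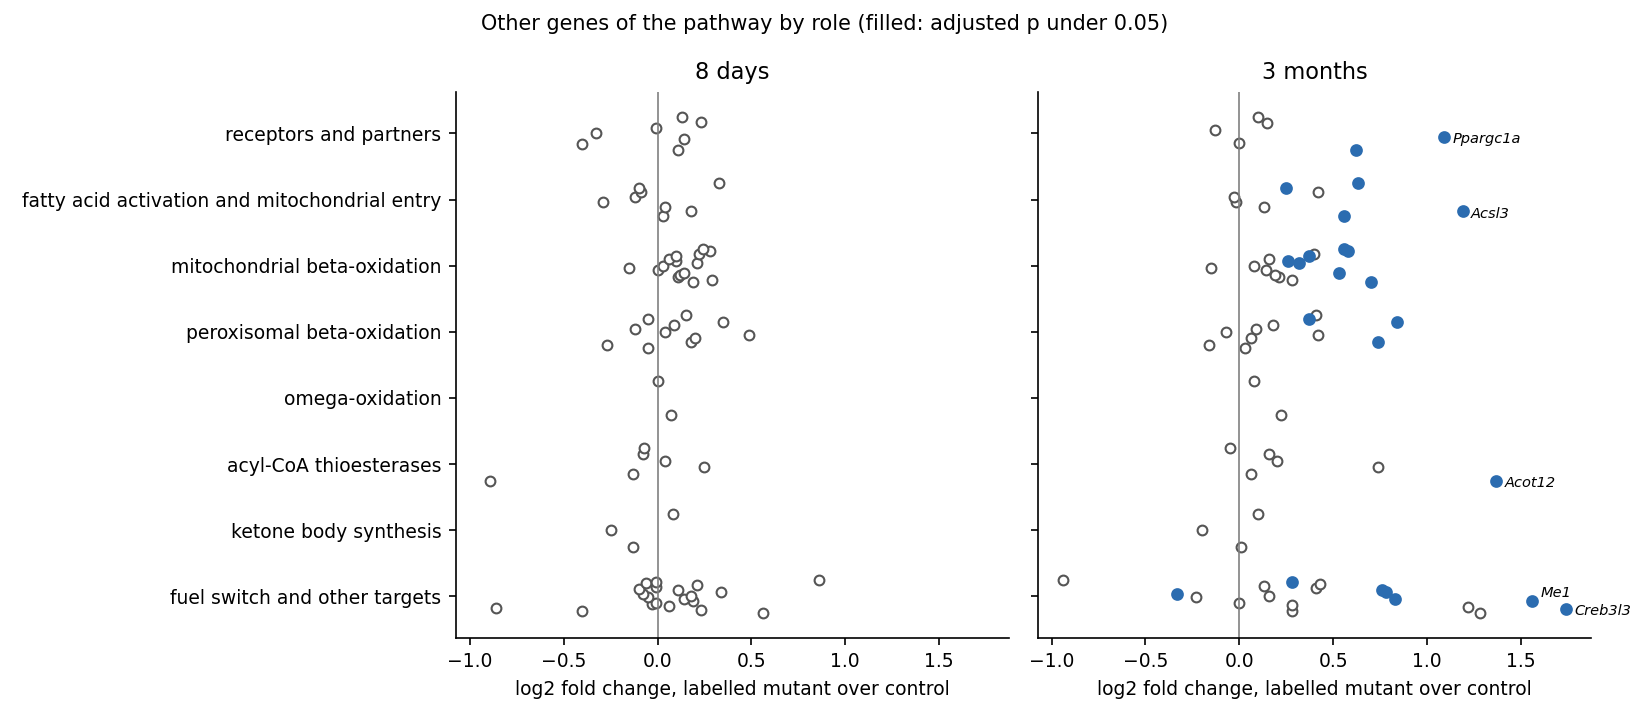
Log2 fold change, labelled mutant over control, of the other listed pathway genes by role at 8 days and 3 months, with filled points for an adjusted p under 0.05. No point is filled at 8 days, and 24 are filled at 3 months, of which Creb3l3 lies farthest to the right and Pdk3 is the only one left of 0. Some listed genes are not drawn.

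Promoters were searched for the response element of PPAR-alpha and RXR, to which the receptor is known to bind. The element is a repeat of the half-site AGGTCA with 1 base between, and the 250 bases before the start of each RefSeq promoter window (GRCm38.p6) were read on both strands with up to 2 mismatches over both half-sites. Windows were found for 6 of the 8 genes and held 0 matches. Cyp4a10 and Vnn1 have no entry. Of all 32851 windows 3.24% held a match, of the 86 windows of 65 other pathway genes 11.63% (10 windows), and of the 26 windows of 21 genes that rose at 3 months 15.38% (4 windows). The 4 are printed with 20 bases on each side, together with that of Fabp1, which did not pass but had 1 mismatch as did Acot12. Capitals mark the match, and each is read 5′ to 3′ on the strand of its gene.
Acot12, chr13:91741391-91741443, plus strand, 1 mismatch: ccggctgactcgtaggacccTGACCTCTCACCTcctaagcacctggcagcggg
Fabp1, chr6:71199792-71199844, plus strand, 1 mismatch: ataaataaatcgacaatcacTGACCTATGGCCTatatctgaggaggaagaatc
Creb3l3, chr10:81092768-81092820, minus strand, 2 mismatches: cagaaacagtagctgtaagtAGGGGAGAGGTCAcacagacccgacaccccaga
Etfa, chr9:55512288-55512340, minus strand, 2 mismatches: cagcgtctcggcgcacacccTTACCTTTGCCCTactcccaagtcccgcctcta
Plin2, chr4:86670252-86670304, minus strand, 2 mismatches: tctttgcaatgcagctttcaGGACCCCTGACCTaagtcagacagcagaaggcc
The repeat runs in the direction of the gene at Creb3l3 and against it at the other 4. The matches end 98 bases before the start at Acot12, 55 at Fabp1, 197 at Creb3l3, 65 at Etfa and 213 at Plin2. A match is a description of letters, and no match says only that these letters are not in this window.

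Whether the response differed between the time points was tested directly. By the interaction contrast of edgeR over all 15 libraries, 0 of the 8 genes differed, where 0.785% of 17959 genes did. Pdk4 alone had an unadjusted p under 0.05, and DESeq2 and limma-voom called 0 of the 8 as well. Its difference was a log2 value of 2.34, higher at 3 months (SE 0.82, adjusted p 0.159). It was 1.46 (adjusted p 0.278) without labelled mutant replicate 1 of 3 months and 3.15 (0.255) with the Rfx6f/f controls alone, the lowest and highest of the alternatives run. Cyp4a10, tested here, was at 2.75 (SE 1.5, adjusted p 0.381), and at 1.6 (0.685) without control replicate 2 of 8 days. Of 74 other pathway genes 0 was called by edgeR or limma-voom and 6 by DESeq2, which called 5.64% of all genes. By edgeR 20 had an unadjusted p under 0.05, where 16.6% of all genes did. The log2 fold change was larger at 3 months in 63 of the 74, with a median difference of 0.19, against 48.1% of all genes and a median of -0.01.

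The control genotypes were compared at 3 months, since both served as controls. Between Rfx6f/+ and Rfx6f/f, 0 of the 8 genes was called by edgeR, where 0 of 17780 genes was (1220 at an unadjusted p under 0.05, 48 called by DESeq2, 0 by limma-voom). With 2 libraries each, the genotypes were separate in Ehhadh (67.2 CPM in Rfx6f/+ against 83.6 in Rfx6f/f), Acaa1b (1.28 against 4.28 CPM) and Pdk4 (6.48 against 2.63 CPM). These are 3 of the 8, where 46.0% of all 17780 genes were separate in either direction, so the share was no larger than the background. The log2 differences, Rfx6f/+ over Rfx6f/f, were -0.31, -1.69 and 1.3, with adjusted p of 0.76 for Acaa1b and 0.794 for Pdk4 by edgeR.

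Markers of gut region and of other cells moved beside the 3-month pathway changes. Rbp2, of the proximal small intestine, went from 55.4 to 74.9 CPM in controls to 154 to 252 CPM in labelled mutants (log2 fold change 1.60, adjusted p 0.00164 by edgeR), 1 of 5 tested proximal markers called. The summed proximal markers were at 82.8 to 122 CPM in controls and 218 to 312 CPM in labelled mutants. Rbp2 held most of this sum, with means of 66.3 CPM in controls and 201 CPM in labelled mutants. Means of Gata4 (2.61 and 6.83 CPM), Lct (23.2 and 36.7) and Cybrd1 (6.77 and 7.53) were higher in labelled mutants. Those of Onecut2 (6.07 and 5.88) and Pdx1 (0.466 and 0.386) were lower. Of 5 distal markers 2 fell, Fabp6 (-1.44, adjusted p 0.00873) and Slc51b (-0.70, adjusted p 0.00613), and the sum went from 3200 to 3880 CPM to 1260 to 2090 CPM. Fabp6 was the largest part of that sum, with means of 2420 and 896 CPM, and all 5 fold changes were negative. Immune markers were at 2280 to 3160 CPM in controls and 1240 to 1800 CPM in labelled mutants, with Jchain and Itgam called lower. Jchain held most of the immune sum, with means of 2330 and 1290 CPM, and all 6 fold changes were negative. The sums for enterocytes (9370 to 10900 against 7360 to 10800 CPM), smooth muscle (1550 to 1880 against 1690 to 3060 CPM), adipocytes (9.01 to 135 against 34.9 to 131 CPM) and pancreatic acinar cells (30 to 957 against 15.4 to 289 CPM) overlapped between groups, with 0 genes of these 4 lists called by edgeR. At 8 days the proximal sum spread from 489 to 1030 CPM in controls and from 97.4 to 904 CPM in labelled mutants, where Lct was at 3.46 and 7.35 CPM in replicates 2 and 4 against 282 to 649 CPM elsewhere. Without those 2 libraries, an alternative chosen after seeing the data, the 8-day median log2 fold change of the 7 tested genes went from 0.16 to 0.08. In that fit 5 of the 7 were positive and 0 was called by edgeR. The part of region and cell content in the values above was not tested.

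How near the 8 genes lay to each other over the 15 libraries was described by a measure of likeness. Likeness was the root mean square difference of log2 CPM after centring each gene, over 13488 genes. Genes were not scaled, so it depends on how much a gene varies as well as on the shape of its profile. It therefore cannot tell whether the 8 genes shared 1 pattern. Ppara and Cpt1a were the closest pair of the 8 at 0.20, followed by Ppara and Ehhadh at 0.22, and Acaa1b and Cyp4a10 were the farthest at 1.27. The nearest of all genes to Ppara were Usf3 (0.13) and Fam168a (0.14), to Cpt1a Anks6 and Slc38a1 (0.14 each), and to Ehhadh Acad11 (0.08) and Zfyve9 (0.09). Vnn1 was nearest to Ifit1bl2 (0.18) and Flvcr1 (0.23), and Acot1 to Acacb (0.25) and Dgkh (0.27). Acaa1b (Slc22a3 at 0.62, Cpn1 at 0.76), Pdk4 (Tmie at 0.70, Galr1 at 0.72) and Cyp4a10 (Cnksr2 and Zfp14 at 0.90) had no gene as near. These 3 also varied most about their own means, with root mean squares of 1.21, 1.15 and 1.11 against 0.23 for Ehhadh.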

How the data were processed

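RNA from the ileum of 15 mice was counted per gene. The authors deposited raw counts per Ensembl gene in 2 tables, 1 per cohort, 1 column per library, matched to samples through their titles. The submitters' processing notes name the build mm9 and bcl2fastq 2.17.1.14, Bowtie 1.0.0, TopHat2 2.0.10, Bowtie2 2.1.0 and HTSeq 0.6.1, with no roles; annotation release and strand handling are not given in the sources used here. The labels name both polyA RNA and a ribosomal depletion kit, and 2 extraction methods without saying which sample had which, so a read from an overlapping gene or an extraction batch could not be separated. GENCODE M21 (GRCm38) gave symbols for 32897 of 37620 identifiers (87.45%), and 0.675% of counts fell on the others. Because the builds differ, coordinates are printed only for RefSeq promoter sequences.

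From these counts, each time point was fitted alone with the edgeR 4.0.16 quasi-likelihood test (R 4.3.3) after filterByExpr (minimum count 10) and TMM scaling, with Benjamini-Hochberg adjustment over all genes tested and a threshold of 0.05. The time points were compared by an interaction contrast over all 15 libraries, the control genotypes in 1 fit of the 3-month cohort. Fold changes are labelled mutant over control, errors are SD for means and SE for fold changes, and tests are two-sided. Log2 CPM for likeness used a prior count of 2 and a mean log2 CPM of at least 0 or membership. Replicates were numbered in deposit order. Alternatives were DESeq2 1.42.0, limma-voom (limma 3.58.1), a joint fit, only the Rfx6f/f controls, RLE scaling, TMM after removing the top 20 genes by counts, no filter, a minimum of 10 counts throughout, robust empirical Bayes, and omission of each library in turn. Labelled mutant replicates 2 and 4 of 8 days were also left out together, an alternative chosen after seeing the data. Figures used matplotlib 3.10.9.

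The 8 genes, the pathway list and the marker lists were chosen with earlier results of these data known. Named genes were the 8, the pathway genes called at either time in order of adjusted p (at most 20) and near-identical relatives. Angptl4, Fabp1, Pparg, Cpt2, Eci2, the clock genes and the markers stand outside that rule. Results for some pathway genes are not reported here one by one, though counts over the list include them. On simulated counts with 200 genes changed by a log2 value of 2 over 3 draws, edgeR recovered 92.0% of them among 17493 genes at 8 days, 94.8% among 17085 at 3 months and 77.3% among 17959 in the interaction, and 6.76%, 4.53% and 3.53% of its calls were false. For DESeq2 20.3%, 17.8% and 14.9% of calls were false. Most fold changes of the 8 genes were smaller than the simulated one, and recovery at such sizes was not simulated.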

Additional observations from a re-analysis of the deposited data

Results flagged for a closer look

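In 8 of 99 groups of 4 libraries checked, 1 library stood apart from the other 3 by Dixon's criterion, where about 4.95 are expected by chance at 1 in 20. Labelled mutant replicate 1 of 3 months was the high library in 4 of the 8. It held Ppara at 52.7 CPM against 26.6 to 28.7, Cyp4a10 at 0.963 against 0.107 to 0.187, Acadvl at 228 against 186 to 192 and Eci2, an enoyl-CoA isomerase, at 58.1 against 47.5 to 48.8 CPM. Control replicate 4 of 3 months was the high one for Cpt2 at 88.2 against 76.4 to 77.3 CPM, and for Hadhb at 144 against 126 to 129 CPM. Control replicate 2 of 3 months was the low one for Creb3l3, at 49.9 against 62.6 to 63.9 CPM. Labelled mutant replicate 1 of 8 days was high for Ehhadh, at 101 against 89.8 to 91.4 CPM. No gene of the 8 differed between the time points past the threshold.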

How the results depend on the processing

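No paired analysis was possible because the labels pair no samples and replicates were numbered in deposit order. Over 47 gene results, 709 of 837 alternative values kept direction and side of the threshold, 117 lost the call, 5 gained it and 6 reversed; the cause was not tested. Reversed were, at 8 days, Ehhadh (-0.04 without control replicate 1, -0.0036 without labelled mutant replicate 1; range over left-out libraries -0.04 to 0.15), Pdk4 (0.23 without control replicate 2, 0.09 without labelled mutant replicate 2; range -0.47 to 0.23) and Ppara (-0.03 without labelled mutant replicates 2 and 4, low in proximal markers, an alternative chosen after seeing the data), and the Acot1 difference between time points (-0.16 without labelled mutant replicate 1 of 3 months; range -0.16 to 0.52).

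DESeq2 called 178 genes at 8 days (109 higher, 69 lower; 2 of the 8 genes, 1 other pathway gene), 2989 at 3 months (1477 and 1512; 2 of the 8), 1013 for the time difference (6 other pathway genes) and 48 between control genotypes, against 16, 1586, 141 and 0 by edgeR. No filter gave 27 at 8 days and 223 for the difference (2 other pathway genes), 10 counts in every library 248 (2 other pathway genes), and limma-voom 41. The joint fit gave 25 at 8 days and 2 of the 8 genes at 3 months. With Rfx6f/f controls only, 36 genes (0 of the 8, 1 other pathway gene) were called at 3 months and 5 for the difference.

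Leaving out 1 library gave 8 to 200 genes at 8 days, 391 to 1521 at 3 months and 10 to 749 for the difference. Of the 8 genes 0 was called at 8 days in any such fit and 0 to 2 at 3 months. Other pathway genes numbered 7 to 24 at 3 months and 0 to 4 for the difference. Cyp4a10 was below the filter within each time point, and was tested there only with no filter, in the joint fit and, at 3 months, with Rfx6f/f controls only.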
